A study of Mus musculus with 2 samples.

Results

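The 7 genes described here belong to leukocyte adhesion and were followed across the cells of the mouse aortic arch. They were found by their symbols in the gene tables of both libraries, and all 7 were present among 31053 genes. Vcam1, Icam1 and Icam2 encode immunoglobulin-type ligands of leukocyte integrins, Sele and Selp encode E-selectin and P-selectin, and Selplg and Glycam1 encode glycoproteins that selectins bind.

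A pair of single-cell RNA libraries was compared, one from mice on a normal diet (ND) and one from mice on a high-fat diet (HFD). Each library pooled the arches of 2 male mice of the C57BL/6 strain, 16 weeks old, and per the study's methods all of them carried the Apoe-/- genotype, which raises plasma cholesterol. The HFD food held lard, sucrose, cholesterol, sodium cholate and casein and was given from weaning, and the ND mice ate chow. With 1 library per diet and pooled animals, no test of diet was possible: differences between diets are differences between these libraries, and the 95% intervals given cover counting error only.

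Leukocytes leave the blood in steps. Selectins on activated endothelium catch passing cells by binding sialylated glycans on proteins such as PSGL-1, the product of Selplg. Rolling cells are then arrested when their integrins bind VCAM-1 and the ICAMs, and they cross the vessel wall through junctions held by molecules such as PECAM-1. VCAM-1, ICAM-1 and the selectins are textbook molecules of the endothelium over atherosclerotic plaques. GlyCAM-1 is best known as a secreted mucin of high endothelial venules of lymph nodes.

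In GRCm38 the genes lie on 6 chromosomes. Sele (chr1:164048234-164057677) and Selp (chr1:164115264-164150026) stand on the plus strand of chromosome 1, and 57586 bases separate them. Icam1 lies at chr9:21015985-21028817, 555 bases before its paralog Icam4, and Icam2 lies apart at chr11:106377656-106388075 on the minus strand. Vcam1 (chr3:116109949-116129688), Selplg (chr5:113818536-113832644) and Glycam1 (chr15:103562759-103565081) are also on the minus strand. All 7 are annotated as protein coding.

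The bases before the RefSeq start (GRCm38.p6) are shown for the 4 genes with an entry in the promoter table, among them Selp and Glycam1, whose luminal levels differed most between the diets, with Sele and Icam1 beside them. Capitals mark matches to 3 motifs: TGANTCA, the AP-1 site, on either strand, TTCCNGGAA, an inverted repeat, and TATAA on the gene's strand. No matches overlap.
Selp, chr1:164115014-164115263, plus strand: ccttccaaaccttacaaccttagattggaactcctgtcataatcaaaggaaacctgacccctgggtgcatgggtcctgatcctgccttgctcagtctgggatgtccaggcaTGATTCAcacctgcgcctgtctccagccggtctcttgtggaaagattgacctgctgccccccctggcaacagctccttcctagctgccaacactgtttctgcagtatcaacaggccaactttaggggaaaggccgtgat
Sele, chr1:164047984-164048233, plus strand: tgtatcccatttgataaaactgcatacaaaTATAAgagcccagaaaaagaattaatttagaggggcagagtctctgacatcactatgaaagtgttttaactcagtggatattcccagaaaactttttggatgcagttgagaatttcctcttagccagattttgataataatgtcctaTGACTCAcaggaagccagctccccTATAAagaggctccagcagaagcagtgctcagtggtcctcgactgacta
Icam1, chr9:21015690-21015939, plus strand: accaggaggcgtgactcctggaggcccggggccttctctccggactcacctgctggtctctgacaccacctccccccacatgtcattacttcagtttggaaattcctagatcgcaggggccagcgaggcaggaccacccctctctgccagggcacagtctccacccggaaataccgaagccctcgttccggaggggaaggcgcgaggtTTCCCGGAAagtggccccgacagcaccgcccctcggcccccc
Glycam1, chr15:103565082-103565331, minus strand: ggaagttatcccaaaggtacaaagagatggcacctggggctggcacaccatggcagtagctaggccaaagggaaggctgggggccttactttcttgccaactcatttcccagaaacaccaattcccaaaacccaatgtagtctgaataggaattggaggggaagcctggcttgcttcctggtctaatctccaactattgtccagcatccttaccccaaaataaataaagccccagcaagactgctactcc

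The AP-1 letters began 139 bases before the Selp start and 73 bases before the Sele start, and 6.75% of 32851 promoter windows of the same 250 bases held them. The inverted repeat began 42 bases before the Icam1 start and was held by 0.913% of the windows. TATAA occurred 2 times before Sele, the nearer copy from 49 bases before the start, and in 16% of all windows. The NF-kB consensus, searched on both strands, was in 5% of all windows and in none of these 4, which says only that those letters are not in these windows. The GC content of the 4 windows was 53.6% for Selp, 40.4% for Sele, 65.2% for Icam1 and 49.6% for Glycam1.

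After the filters that the labels state, 5416 ND and 2739 HFD cells were kept, the numbers the labels give, with median depths of 3732.5 and 5336 UMIs (unique molecular identifiers, counted transcripts) per cell. A cell was put in a class when it held UMIs of at least 3 of 6 class markers (4 of 5 for airway club cells, 2 for dendritic cells) and passed no other gate, which placed 84.6% of ND and 74.9% of HFD cells. Cells that passed several gates made up 12.5% and 21.7% and were kept apart as mixed cells, since no doublet caller was used. Only 1 kept barcode occurred in both libraries. Apoe was counted at 46.3 CPM in ND and 49.1 CPM in HFD (CPM, a gene's UMIs divided by all UMIs of the group, times 1000000), which does not check the genotype because reads from the 3′ end may lie outside the deleted part. The ND library held 29 airway club cells and the HFD library none, and haemoglobin transcripts took 0.638% of UMIs in ND capillary cells and 4.52% in HFD ones.

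The endothelial gate held 2242 ND and 1100 HFD cells. Within it, cells with at least 2 UMIs each of Cytl1 and Vwf were called aortic luminal (196 ND, 79 HFD), cells with at least 2 UMIs of Gpihbp1 and none of Cytl1 were called capillary (1577 and 732), and cells with 2 of 4 arteriolar genes (Sema3g, Stc1, Hey1, Gja5) were called arteriolar (341 and 238). Summed over the 6 endothelial markers, the luminal cells stood at 7868 CPM in ND and 7890 CPM in HFD. A further 102 ND and 47 HFD mixed cells also met the luminal rule. Of all cells passing the endothelial gate, mixed ones included, 10.9% (exact 95% interval 9.78 to 12.2%) were luminal in ND and 8.25% (6.92 to 9.75%) in HFD.

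**Figure D1:**
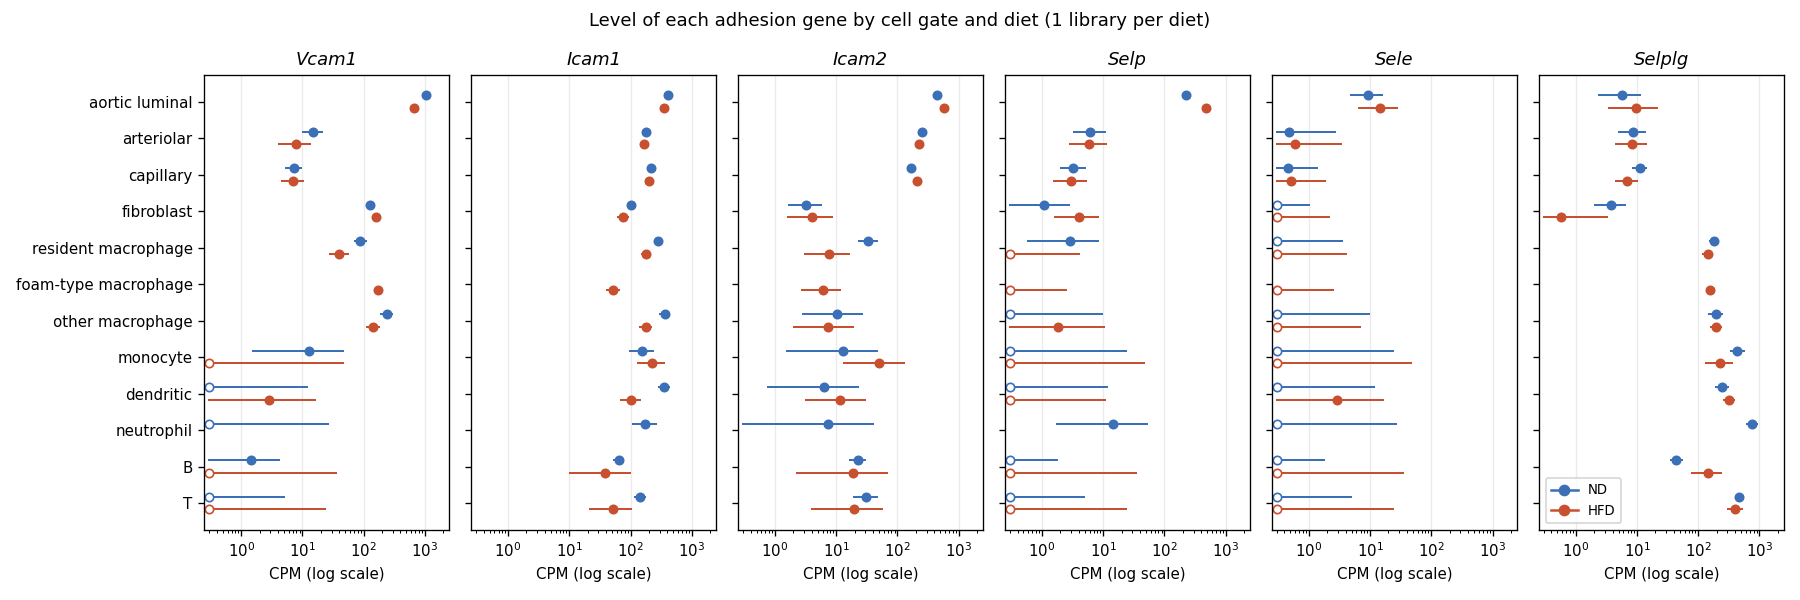
Level of 6 genes in 12 cell gates, without gates of under 10 cells and without the remaining endothelial cells, in CPM on a log scale, for ND (blue) and HFD (red). Points are sums over cells, lines are exact 95% Poisson intervals, and open points at the left edge are counts of 0; among the gates drawn, Vcam1, Selp and Sele are highest in the aortic luminal gate and Selplg in leukocyte gates.

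Vcam1, whose product binds the integrin of ITGA4 and ITGB1 chains, was spread very unevenly over endothelium. In ND it stood at 1059 CPM in luminal cells (1501 UMIs, 1006 to 1114), at 14.8 CPM in arteriolar cells (10.1 to 21) and at 7.28 CPM in capillary cells (47 UMIs, 5.35 to 9.68). In HFD the same gates gave 668.5 CPM (416 UMIs, 605.8 to 735.9), 7.77 CPM (4.14 to 13.3) and 7.06 CPM (28 UMIs, 4.69 to 10.2). Luminal cells thus stood 145-fold over capillary cells in ND and 94.7-fold in HFD, with log2 ratios of 7.18 (6.77 to 7.64) and 6.56 (6.01 to 7.17). Arteriolar and capillary cells, next to each other in this order, had overlapping intervals in HFD and did not in ND.

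Between the diets, Vcam1 was lower in HFD luminal cells by a log2 ratio of -0.66 (-0.82 to -0.51), a level 1.58-fold higher in ND. Its UMIs were detected in 87.2% of ND luminal cells (171 of 196) and 77.2% of HFD ones (61 of 79), and the medians over single cells were 630.03 CPM in ND and 348.8 CPM in HFD. Single ND cells reached 16086 CPM, and without the cell with the most Vcam1 UMIs in each library (125 in ND, 41 in HFD) the log2 ratio was -0.65. In the mixed cells that met the luminal rule Vcam1 was not lower in HFD, at 869.4 CPM in ND and 941.4 CPM in HFD (0.11, -0.03 to 0.26), or 0.23 (0.07 to 0.39) without the top cell of each library, which held 207 UMIs in ND, and with these cells added the luminal ratio shrank to -0.27 (-0.38 to -0.16). The size of the luminal difference therefore depended on how mixed cells were treated. In capillary cells the log2 ratio was -0.04 (-0.77 to 0.66). The remaining endothelial cells, in none of the named gates, went the other way, at 120.24 CPM in ND (123 cells) and 383.25 CPM in HFD (45 cells). Their log2 ratio was 1.67 (1.12 to 2.25). In ND 1 cell held 24 of the 40 UMIs and in HFD 1 held 54 of the 93, and without them the ratio was 1.91 (1.04 to 2.85).

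The share of Vcam1 UMIs held by each gate differed between the libraries more than the level over all kept cells did. Over all kept cells Vcam1 stood at 138.4 CPM in ND (3755 UMIs) and 155.2 CPM in HFD (2668 UMIs). Luminal cells held 40% of the ND UMIs and 15.6% of the HFD ones, and luminal cells among the mixed cells added 32.2% and 20.7%. Macrophages held 4.98% in ND and 13.9% in HFD, and other mixed cells of the endothelial gate held 3.65% (358 cells) and 22% (372 cells). These shares also move with cell numbers. Macrophages were 5.8% of kept cells in ND and 14.9% in HFD, with levels of 124.3 and 126.7 CPM, and luminal cells were 3.62% and 2.88%. The other mixed cells of the endothelial gate included 1 HFD cell with 248 of their 588 Vcam1 UMIs, the highest of any cell.

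Outside endothelium, Vcam1 was found in fibroblasts and macrophages and in few lymphocytes. Fibroblasts stood at 127.6 CPM in ND (945 cells) and 158.7 CPM in HFD (384 cells). The HFD value rests on 1 cell with 91 of 273 UMIs, and without the top cell of each library the levels were 124.5 and 106.8 CPM. In HFD, 7 cells that passed both the smooth muscle and the fibroblast gates held 142 Vcam1 UMIs, 1199 CPM (1010 to 1413), with at most 41 in 1 cell, while 11 such ND cells stood at 300.2 CPM (171.6 to 487.5). Their median depths were 19376 UMIs in HFD and 4459 UMIs in ND, and whether they were single cells was not tested. Single-gate smooth muscle was too rare for a comparison, with 27 ND and 5 HFD cells. No Vcam1 UMI was seen in 256 ND and 24 HFD T cells, which allows up to 1.17% and 12.5% of cells with a UMI, and 3 were seen in 513 ND B cells. After thinning every cell to 1000 UMIs, 0.195% of ND B cells still held one, against 46.7% of ND luminal cells and 11% of ND fibroblasts.

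Macrophages were split by resident genes (Lyve1, Folr2, F13a1, Cbr2) and by foam-cell genes (Trem2, Gpnmb, Spp1, Cd9). Resident cells held Vcam1 at 89 CPM in ND (222 cells, 71.9 to 109) and 39.7 CPM in HFD (171 cells, 27.8 to 55), a log2 ratio of -1.17 (-1.76 to -0.60). The foam-type gate held 148 HFD cells at 174.6 CPM (153.9 to 197.3) but only 5 ND cells, with 2 Vcam1 UMIs. Within HFD, foam-type cells thus stood 4.4-fold over resident cells, with a log2 ratio of 2.14 (1.63 to 2.68). The macrophage class as a whole gave 124.3 CPM in ND and 126.7 CPM in HFD, a log2 ratio of 0.03 (-0.23 to 0.29), although both its resident cells and its remaining cells (240.2 and 142.4 CPM) were lower in HFD. That whole-class ratio turned on the treatment of the cells: it was 0.82 with at most 20% mitochondrial UMIs per cell and -0.74 with cells thinned to 1000 UMIs.

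Icam1, the ligand of the beta-2 integrins LFA-1 and Mac-1, was spread far more evenly. In ND it stood at 411.4 CPM in luminal cells (583 UMIs, 378.7 to 446.2), 213 CPM in capillary cells (1375 UMIs, 201.9 to 224.6) and 180.5 CPM in arteriolar cells (162.8 to 199.7). In HFD these levels were 355.1 CPM (221 UMIs, 309.9 to 405.2), 198.5 CPM (787 UMIs, 184.9 to 212.9) and 168 CPM (149 to 188.9). Luminal cells stood 1.93-fold over capillary cells in ND and 1.79-fold in HFD. Between the diets the log2 ratios were -0.21 (-0.44 to 0.01) in luminal, -0.10 (-0.33 to 0.12) in arteriolar and -0.10 (-0.23 to 0.03) in capillary cells (0.06 there with median-of-ratios scaling), so that none of these 3 gates differed beyond counting error. Without the top cell of each library the luminal ratio was -0.27 (-0.51 to -0.04), and the whole endothelial gate gave -0.17 (-0.27 to -0.08), close to the median gene. In the capillary cells with a UMI of Cxcl9, an interferon-induced chemokine gene, Icam1 stood at 225.6 CPM in ND (893 cells) and 263 CPM in HFD (162 cells), and in those without it at 187.2 and 176.5 CPM.

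Macrophages, dendritic cells and T cells held less Icam1 in HFD. Macrophages stood at 293.1 CPM in ND (314 cells, 441 UMIs) and 114.4 CPM in HFD (408 cells, 334 UMIs), a log2 ratio of -1.36 (-1.57 to -1.15). Resident macrophages gave 277.6 and 178.6 CPM, -0.64 (-0.92 to -0.35), and foam-type cells of HFD stood lowest of the macrophage gates at 51.6 CPM (40.7 to 64.6). Dendritic cells held 352.5 CPM in ND (43 cells) and 101.4 CPM in HFD (56 cells), -1.80 (-2.39 to -1.24). T cells held 143.6 CPM in ND and 51.3 CPM in HFD, where 24 cells gave 8 UMIs. Fibroblasts differed less, at 102.9 and 75.6 CPM, -0.44 (-0.74 to -0.15). Monocytes went the other way, at 156 CPM in ND (37 cells) and 225.4 CPM in HFD (18 cells), with an interval on both sides of 0 (-0.44 to 1.47).

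Icam2, a second LFA-1 ligand that is carried by resting endothelium and platelets, marked endothelium in both libraries. It stood at 223.8 CPM in the whole ND endothelial gate and 246.9 CPM in the HFD one, and at 3.22 and 4.07 CPM in fibroblasts. Luminal cells held 440.3 CPM in ND (624 UMIs, 406.5 to 476.3) and 584.9 CPM in HFD (364 UMIs, 526.4 to 648.2). Arteriolar cells followed at 248.3 and 227.8 CPM, and capillary cells at 168.4 CPM (1087 UMIs, 158.5 to 178.7) and 207.8 CPM (824 UMIs, 193.9 to 222.5). In HFD the intervals of the last 2 gates overlapped.

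Icam2 was higher in HFD in luminal cells, by 0.41 (0.22 to 0.60), and in capillary cells, by 0.30 (0.17 to 0.44), on the log2 scale, while arteriolar cells gave -0.12 (-0.32 to 0.07). The luminal difference was 0.49 (0.35 to 0.64) with mixed cells added. After thinning every cell to 1000 UMIs it was 0.13, and with a luminal rule on Vwf without Gpihbp1 in place of Cytl1 it was 0.20. In single luminal cells the medians were 388.1 CPM in ND and 545.2 CPM in HFD. Macrophages held little Icam2, 40 UMIs in ND of which 20 came from 1 cell, and 20 UMIs in HFD.

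**Figure D2:**
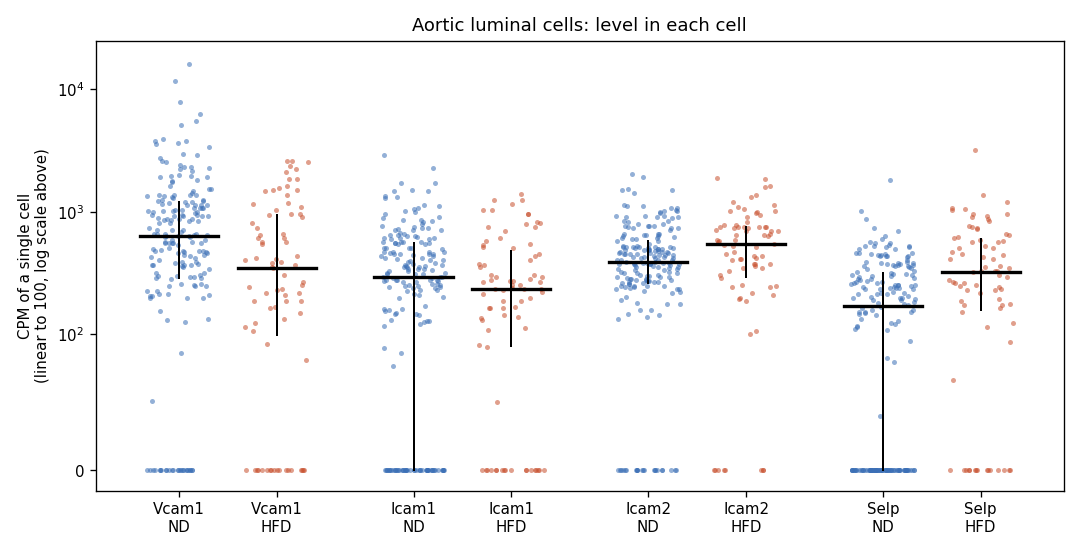
Level of 4 genes in each of 196 ND (blue) and 79 HFD (red) aortic luminal cells, in CPM of the cell on an axis that is linear to 100 and logarithmic above. Thick bars are medians and thin lines the quartiles; the HFD median is below the ND median for Vcam1 (348.8 against 630.03) and Icam1 and above it for Icam2 and Selp.

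Selp, which encodes the P-selectin stored in endothelial Weibel-Palade bodies and platelet granules, was found mostly in cells of the luminal rule. In ND they stood at 228.6 CPM (324 UMIs, 204.4 to 254.9) and capillary cells at 3.25 CPM (21 UMIs, 2.01 to 4.97), 70.3-fold apart. In HFD they stood at 486.9 CPM (303 UMIs, 433.6 to 544.9) and capillary cells at 3.03 CPM (12 UMIs, 1.56 to 5.29), 161-fold apart. Of the cells with a Selp UMI, 83% in ND (190 of 229) and 70.7% in HFD (104 of 147) met the luminal rule, mixed cells included.

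Selp was higher in HFD luminal cells by a log2 ratio of 1.09 (0.86 to 1.32), 2.13-fold. A Selp UMI was found in 61.2% of ND luminal cells (120 of 196) and 81% of HFD ones (64 of 79), and the single-cell medians were 169.2 and 319.9 CPM. After thinning to 1000 UMIs the shares were 19.5% and 29.1%, against 0% and 0.137% in capillary cells, which serve as background. The luminal log2 ratio after thinning was 0.81, short of 2-fold. Median depths were 5441.5 and 6616 UMIs in luminal and 3101 and 4959 UMIs in capillary cells, and thinning left out 1 ND luminal and 3 ND capillary cells. One HFD cell held 49 of the 303 UMIs, and without the top cell of each library the ratio was 0.91 (0.66 to 1.15), short of 2-fold. Mixed luminal cells alone gave 176.9 CPM in ND and 382.7 CPM in HFD, 1.11 (0.85 to 1.38). In capillary cells the ratio was -0.10 (-1.26 to 0.99), from 21 and 12 UMIs.

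Transcripts of platelets, which also carry Selp, were few. In luminal cells the 6 platelet genes (Pf4, Ppbp, Itga2b, Gp9, Gp1bb, Tubb1) summed to 5 UMIs in ND, from 1 gene, and to 8 in HFD, from 3 genes, 3.53 and 12.9 CPM, with Ppbp, Gp1bb and Tubb1 at 0 in both. Haemoglobin transcripts were 103 CPM in ND luminal cells and 3728 CPM in HFD ones, and fibroblast markers were 553.2 and 748.8 CPM with all 6 detected in both. Smooth muscle markers were 513.02 CPM in ND luminal cells (5 of 6 detected) and 241.04 CPM in HFD ones (3 of 6), and lymphatic endothelial markers 139.02 CPM (4 of 6) and 49.8 CPM (3 of 6). Mitochondrial UMIs made up 10.3% of the ND luminal total and 14.9% of the HFD one, and with at most 20% per cell the luminal ratios were 1.16 for Selp, -0.54 for Vcam1 and 0.38 for Icam2. For the tissue markers, their part in the Selp, Vcam1 and Icam2 differences was not tested. Leaving out cells over 1% haemoglobin UMIs gave 1.10 for Selp, -0.64 for Vcam1 and 0.40 for Icam2.

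The background was the share of all genes past 2-fold. Of 3106 genes with at least 100 UMIs in luminal cells, 1.35% were over 2-fold higher in HFD and 3.03% over 2-fold lower, and of the 4 members with enough UMIs (Vcam1, Icam1, Icam2, Selp) 1 was higher, Selp, and 0 were lower. In the whole endothelial gate 1.27% of 9024 genes were over 2-fold higher and 3.92% lower, and 0 of 5 members were past 2-fold. In capillary cells 1.63% of 7477 genes were higher and 4.44% lower, and 0 of the 2 members with enough UMIs (Icam1, Icam2) were past 2-fold. In macrophages 3.66% of 4728 genes were higher and 5.41% lower, and of 3 members (Vcam1, Icam1, Selplg) 1 was lower, Icam1. The median log2 ratio of all genes tested was -0.05 in luminal, -0.15 in endothelial, -0.17 in capillary and -0.08 in macrophage cells, so that the capillary ratio of Icam1 was close to that of the median gene and that of Icam2 stood further above it.

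**Figure D3:**
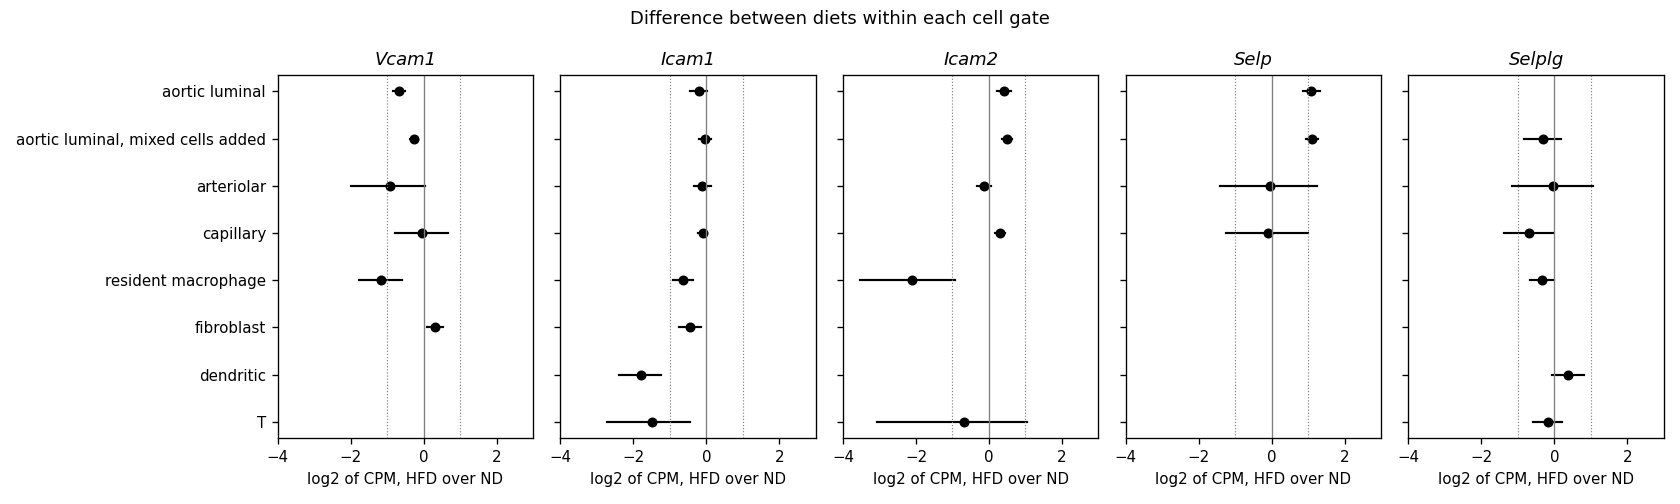
Log2 ratio of CPM, HFD over ND, of 5 genes within each cell gate, for pairs with at least 20 UMIs and UMIs in both libraries. Points are ratios of sums, lines are exact 95% intervals for counting error, and dotted lines mark 2-fold; in luminal cells Selp (1.09) and Icam2 (0.41) lie above 0 and Vcam1 (-0.66) below it.

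Sele, which encodes the E-selectin that cytokines induce on endothelium, was scarce at this depth. It gave 28 UMIs in ND, in 23 cells, and 45 in HFD, also in 23 cells. Luminal cells held 9.17 CPM in ND (13 UMIs, 4.88 to 15.7) and 14.5 CPM in HFD (9 UMIs, 6.61 to 27.5), with a log2 ratio of 0.66 (-0.75 to 1.995), so that a difference was not detectable. The gate with the highest HFD level was that of the remaining endothelial cells, in none of the named endothelial gates, with 53.6 CPM in 45 cells (28.5 to 91.6) against no UMI in 123 ND cells. Its 13 UMIs, 28.9% of the HFD total, came from 2 cells, of which 1 held 9. Capillary cells held 3 and 2 UMIs, and luminal over capillary log2 ratios were 4.30 (2.44 to 6.75) in ND and 4.84 (2.57 to 8.09) in HFD. Over the whole endothelial gate the level was 1.65 CPM in ND and 4.11 CPM in HFD, 1.32 (0.39 to 2.29), but 9 of the 27 HFD UMIs came from 1 cell, and the ratio without the top cells was 1.01 (-0.08 to 2.13). Of the cells with a Selp UMI, 18 of 229 in ND and 19 of 147 in HFD also held Sele.

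Selplg, which encodes the selectin ligand PSGL-1 of leukocytes, was distributed the other way round. In ND the order of the classes with at least 10 cells was NK cells at 872.3 CPM (14 cells, 600.5 to 1225), neutrophils at 764.6 CPM (72 cells, 626 to 924.7), T cells at 459 CPM (256 cells, 411.7 to 510.3), monocytes at 435.4 CPM (37 cells, 337.4 to 552.9), dendritic cells at 244.5 CPM (192.9 to 305.6), macrophages at 181.4 CPM (160.5 to 204.3) and B cells at 44 CPM (35.5 to 54). The intervals of NK cells and neutrophils overlapped, as did those of T cells and monocytes and those of dendritic cells and macrophages. Endothelial cells stood at 9.78 CPM and fibroblasts at 3.76 CPM. After thinning, 52.8% of ND neutrophils and 37.6% of T cells held a Selplg UMI, against 0.671% of endothelial cells.

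In HFD the order was T cells at 404 CPM (24 cells), dendritic cells at 318.6 CPM (56 cells), monocytes at 225.4 CPM (18 cells), macrophages at 160.7 CPM (408 cells) and B cells at 142 CPM (14 cells, 79.5 to 234.2). T cells, dendritic cells and macrophages had diet ratios whose intervals held 0 (-0.18, 0.38 and -0.18). Monocytes were lower in HFD, -0.95 (-1.79 to -0.18), and B cells higher, 1.69 (0.80 to 2.49), on 18 and 14 HFD cells. Leukocytes other than macrophages held 42.3% of the ND Selplg UMIs and 17.8% of the HFD ones, and macrophages held 16.1% and 39.3%. T cells went from 20.2% (256 cells) to 5.28% (24 cells), neutrophils from 6.25% (72 cells) to 0.419% (6 cells) and B cells from 5.42% (513 cells) to 1.26% (14 cells), and foam-type macrophages from 0.59% (5 cells) to 19.5% (148 cells). In capillary cells Selplg gave 71 and 27 UMIs, 11 and 6.81 CPM, and mixed cells of the luminal rule, which include endothelial cells that also passed leukocyte gates, stood at 89.2 and 68.3 CPM.

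**Figure D4:**
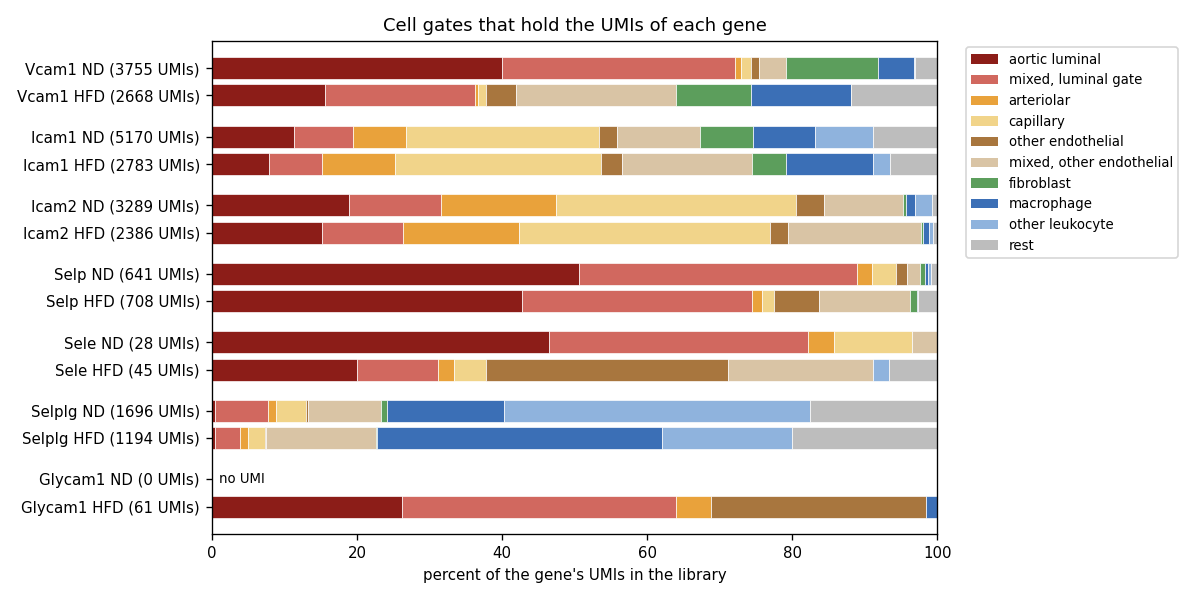
Share of each gene's UMIs held by each cell gate, in percent of the gene's UMIs in the library, with the number of UMIs beside each bar. Cells that met the luminal rule, mixed ones included, held most Vcam1 UMIs in ND (40% and 32.2%) but not in HFD (15.6% and 20.7%), and no Glycam1 UMI was counted in ND.

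Glycam1 was counted in the HFD library only. No UMI was seen in the 5416 ND cells, nor in the 4818 ND barcodes left out by the filter, and 61 UMIs were seen in 25 of the 2739 HFD cells (0.913%). The HFD level over all kept cells was 3.55 CPM (2.71 to 4.56), at least 32.1-fold over the level that 3 UMIs would give in ND. With counting error on both sides the lower limit of the log2 ratio was 4.66. In luminal cells it was 25.7 CPM (16 UMIs in 7 of 79 cells, 14.7 to 41.8), at least 12.1-fold over ND by the same floor and with a lower limit of 3.13 for the log2 ratio, and with mixed cells added 32.3 CPM (39 UMIs in 18 of 126 cells). A count of 0 in 196 ND luminal cells allows up to 1.53% of cells with a UMI. No Glycam1 UMI was found in 732 HFD capillary cells.

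Most cells with Glycam1 also held Selp. Of the 25 cells with Glycam1, 24 held Selp, 24 Vwf, 20 Vcam1, 19 Cytl1 and 3 Gpihbp1, whereas of the 1503 other HFD cells in the endothelial gate 115 held Selp, 172 Vwf and 1367 Gpihbp1. Of the 126 HFD cells that met the luminal rule, mixed ones included, 104 held Selp. Whether Glycam1 went with Selp beyond that rule was not tested. The 25 cells with Glycam1 were deeper, with a median of 13555 UMIs against 5511, which raises the chance of detecting any gene. Of the 25, 18 met the luminal rule, 24 passed the endothelial gate and 1 was a foam-type macrophage. In 14 of them 1 Glycam1 UMI was counted. The highest, with 11, was among the 6 HFD cells of the venular gate, set by a UMI of Ackr1 in cells of the endothelial gate alone. These 6 cells held 12 of the 61 Glycam1 UMIs (19.7%) among 64229 UMIs in all, while the 79 luminal cells held 16 among 622308. In the HFD venular gate Selp stood at 420.4 CPM (27 UMIs) and Vcam1 at 295.8 CPM (19 UMIs). The ND venular gate held 5 cells with 25450 UMIs in all, of which 4 were of Selp and 0 of Vcam1 or Glycam1. Of the listed genes of high endothelial venules, Chst4 and Madcam1 had 0 UMIs in the 25 cells and Fut7 was in 1 cell. Ackr1 was in 4 of the 25 (16%), against 8 of all 147 HFD cells with a Selp UMI (5.44%).

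Detection of several members in 1 luminal cell was counted for the 4 with the most UMIs there. All 4 of Vcam1, Icam1, Icam2 and Selp were found in 93 of 196 ND cells (47.4%) and 44 of 79 HFD cells (55.7%), and 3 ND cells and 0 HFD cells held none. After thinning to 1000 UMIs all 4 were found in 4 of 195 ND and 2 of 79 HFD cells, so that these shares move with depth.

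Other genes of leukocyte traffic were read from lists with at least 100 UMIs as the minimum. For the counts in these lists, the shares of all genes over 2-fold higher and lower were 1.35% and 3.03% in luminal cells. They were 1.63% and 4.44% in capillary and 3.66% and 5.41% in macrophage cells. Of 8 junctional molecules 6 had enough UMIs in luminal cells and 0 passed 2-fold: Pecam1 stood at 3564 CPM in ND and 3510 CPM in HFD, Cdh5 at 809.4 and 915.9 CPM, Esam at 510.9 and 678.1 CPM and F11r at 287.2 and 270 CPM. In capillary cells 7 were read and 1 was over 2-fold lower in HFD, Jam3 at 65.5 and 25.7 CPM. Of 7 other selectins, mucins and ligands, 3 were read in luminal cells with 0 past 2-fold, Cd34 (375.4 and 470.8 CPM) and Podxl (311.9 and 503 CPM), which encode sialomucins, and Cd24a (315.4 and 216.9 CPM), the 1 of them lower in HFD. In capillary cells 4 were read, with 2 over 2-fold higher and 1 lower: Podxl stood at 271.9 and 741 CPM, Cd24a at 7.13 and 21.4 CPM and Cd44, the hyaluronan receptor, at 88.2 and 20.4 CPM, while Cd34 was at 273.6 and 221.5 CPM.

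Enzymes that build selectin ligand glycans were sparse. Of 8, 3 were read in luminal cells: Gcnt1, the core 2 enzyme, was at 228.6 CPM in ND and 123.7 CPM in HFD, B4galt1 at 172.9 and 178.4 CPM, and St3gal4, a sialyltransferase, at 67.7 and 144.6 CPM, the 1 past 2-fold. In capillary cells 3 were read and 1 was over 2-fold lower, St3gal6 at 103.3 and 43.9 CPM. Of the 4 high endothelial venule genes and the 2 other ICAM genes none reached 100 UMIs in an endothelial gate.

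Of 12 genes of the NF-kB pathway and its targets, which include textbook regulators of Vcam1, Icam1 and Sele, 8 were read in luminal cells and 0 passed 2-fold, with a median log2 ratio of -0.36 against -0.05 for all genes. Nfkbia stood at 610.4 CPM in ND and 551.2 CPM in HFD, Nfkb1 at 134.8 and 110.9 CPM, Cxcl1 at 102.3 and 67.5 CPM and Rela at 98.8 and 72.3 CPM. In capillary cells 11 were read, 1 was over 2-fold lower (Cxcl1, 93.6 and 33.5 CPM) and 0 were higher, with a median of -0.56 against -0.17. In macrophages 9 were read, 3 were over 2-fold lower (Ccl2, Birc3 and Irf1), against 5.41% of all genes, and 0 higher. The median of the 9 there was -0.84 against -0.08. Ccl2, a monocyte chemokine gene, was at 1006 and 349.1 CPM there. These macrophage values are for the whole class, in which foam-type cells were 5 of 314 in ND and 148 of 408 in HFD. The part of that makeup in them was not tested.

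The integrins that bind these ligands were read in the leukocytes. Among leukocyte classes of at least 10 cells, Itga4, the alpha chain of the VCAM-1 receptor, stood highest in ND NK cells at 396.5 CPM (14 cells, 221.9 to 654). ND monocytes followed at 350.9 CPM (37 cells, 263.6 to 457.9), and the 2 intervals overlapped. Itga4 was at 325.6 CPM in HFD monocytes (18 cells), 229.5 and 166.7 CPM in ND and HFD T cells, and 81.4 and 44.1 CPM in resident macrophages. Itgal, the LFA-1 alpha chain, stood at 630.4 CPM in ND and 375.7 CPM in HFD monocytes and at 22 and 7.72 CPM in resident macrophages. Itgax, encoding CD11c, was the 1 integrin gene of the list over 2-fold higher in HFD macrophages (72.4 and 173 CPM, 109 and 505 UMIs). Resident cells held 2.87 CPM in ND (3 UMIs) and 7.72 CPM in HFD (7 UMIs). Foam-type cells held 194.4 CPM in ND (5 cells, 15 UMIs) and 281.3 CPM in HFD (148 cells, 414 UMIs). Most of the 109 ND UMIs thus lay in the remaining macrophages (87 ND and 89 HFD cells), whose Itgax level was not read. How far the whole-class difference came from the changed numbers of cells per gate was not tested.

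The genes with the pattern most like each member were named by Pearson correlation of log2(CPM + 10) over 27 points, each a cell gate of at least 20 cells in 1 library, among 10695 genes without the gate markers. The points share libraries and each gate's markers, so the values are descriptions. For Selp they were Isl1 (r = 0.956), Klk10 (0.952), Adra2a (0.945), Fam107a (0.942) and Slco2a1 (0.906). For Vcam1 they were Snx24 (0.884), Itga9 (0.832), Mcfd2 (0.827), Myof (0.798) and Trim47 (0.796). For Icam1 the highest were Il4ra (0.856), Klf10 (0.841), Adar (0.818), St3gal1 (0.779) and Kctd12 (0.774). For Icam2 they were Emcn (0.962), Dll1 (0.958), She (0.958), Gata2 (0.956) and Sox18 (0.955), while Sele and Glycam1 had too few UMIs, and for Selplg Ccdc88b (0.979), Arhgap9 (0.975), Ptprc (0.964), Pik3cd (0.963) and Pstpip1 (0.957).

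The capillary gate differed between the libraries in transcripts of other tissue. The 5 airway club markers summed to 241.4 CPM in ND capillary cells and 0.504 CPM in HFD ones, and the pericyte markers to 127.8 and 202.3 CPM. Monocyte markers summed to 30.5 and 137.7 CPM, adipocyte markers to 48.8 and 148.1 CPM and fibroblast markers to 55.6 and 34.8 CPM. Mitochondrial UMIs made up 15.96% and 21.6%. The monocyte difference was not particular to this gate: these markers summed to 231 CPM in ND and 914.6 CPM in HFD fibroblasts. In luminal cells they summed to 55 and 64.3 CPM. Luminal cells held club markers at 140.4 CPM in ND and 0 in HFD. Whether these transcripts or the makeup of the gates bear on the capillary values of Icam1, Icam2 and Selplg was not tested.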

How the data were processed

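The deposited files hold counts: the authors made UMI counts per gene and barcode for each library with Cell Ranger (version 3.0.1 in the matrix header) on mm10. Seurat 3.2.0, R 4.0.0, bcl2fastq and UMI-tools are named in the submitters' processing notes, while the gene annotation was not stated in the labels or methods. A deposited table joining both libraries was not used. Barcodes with at least 200 UMIs, at least 200 genes and at most 30% mitochondrial UMIs were kept (5416 ND with 27137322 UMIs, 2739 HFD with 17191279).

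UMIs were summed per gate and divided by the gate's total (CPM). Intervals were exact at 95%: Poisson for sums, Clopper-Pearson for shares and conditional binomial for ratios, and a count of 0 was read as up to 3 UMIs. PCR duplicates are removed by UMIs, but cells of 1 library are not replicates, so intervals cover counting error only. Cells passing several gates were kept apart in place of a doublet caller. Alternatives changed the mitochondrial limit, scaling, gates, depth and treatment of mixed cells. Cells were also thinned to 1000 UMIs, leaving out shallower ones. Genes reaching 100 UMIs over the ND and HFD sums formed the background for a 2-fold difference. The ratio script was tested on simulated data. Python 3.11.15, numpy 2.4.6, scipy 1.17.1, pandas 2.3.3 and matplotlib 3.10.9 were used. Gene positions came from GENCODE M21 and promoters from RefSeq.

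The members, gates and lists were chosen with earlier results of these data known. All 7 members are reported, from each list at most the 4 genes with the most UMIs in the gate, and the 5 genes most correlated with a member. The classes of 7 or fewer cells, Jam3, Cxcl1, Ccl2, Birc3, Irf1, Itga4, Itgal and Itgax were named after their values were seen.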

Additional observations from a re-analysis of the deposited data

Results flagged for a closer look

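Diet ratios of opposite sign stood out for Vcam1 and Icam2, and none of the differences between cell classes was tested, since each diet had 1 library. On the log2 scale Vcam1 was lower in HFD in endothelial cells as a whole (-0.86), luminal cells (-0.66) and resident macrophages (-1.17). It was higher in fibroblasts (0.32) and in the remaining endothelial cells (1.67, and 1.91 without the top cells). The fibroblast value rests on 1 HFD cell with 91 UMIs, and without the top cell of each library it was -0.22 (-0.48 to 0.03). Icam2 was higher in HFD in luminal (0.41) and capillary cells (0.30) and lower in macrophages (-1.96), where 1 ND cell held 20 of 40 UMIs, and the macrophage value without the top cells was -1.04 (-2.03 to -0.06).

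Barcodes left out by the filter were described apart. In the 11486 left out of HFD, Icam2 stood at 180.9 CPM without mitochondrial UMIs (172.9 to 189.1), and in the 4818 left out of ND at 107.7 CPM (95.3 to 121.2).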

How the results depend on the processing

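No paired analysis was possible because each diet had 1 library and the labels give no replicate numbers, so no replicate could be left out either. Under the alternatives 281 values moved by less than their counting interval, or for gene counts by less than 1.5 times, and 74 moved further. The remaining value, whose interval excluded 0, changed sign, as did some of the 74 with intervals around 0, and the cause was not tested. The luminal rule with mixed cells and leaving out top cells were chosen after seeing the data. Values are log2 ratios.

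HFD over ND, endothelial cells: with at most 20% mitochondrial UMIs the ratios were -0.31 (Vcam1), -0.068 (Icam1) and 1.18 (Selp), and with median-of-ratios scaling -0.71 (Vcam1), -0.024 (Icam1) and 0.29 (Icam2). With totals free of mitochondrial, haemoglobin and ribosomal protein genes they were -0.043 (Icam1) and 0.27 (Icam2). Vcam1 was -0.28 with mixed cells put in the class with the largest share of markers, -0.65 without cells over 1% haemoglobin, -1.01 without the deepest 5% of cells, -0.39 after thinning and -0.27 in cells with both Pecam1 and Cdh5. In luminal cells Vcam1 was -0.35 with mixed cells assigned and -0.27 with mixed cells added, Icam2 0.13 after thinning and 0.20 by the Vwf rule, and Selp 0.81 after thinning. In capillary cells Vcam1 was 1.39 after thinning, Icam1 0.047 and Icam2 0.45 with the reduced totals, and 0.056 and 0.46 with median of ratios. Selplg in capillary cells changed sign, to 0.20, with mixed cells assigned. In macrophages Vcam1 was 0.82 with at most 20% mitochondrial UMIs, -0.46 as a mean over cells, -0.33 without the deepest cells and -0.74 after thinning, and Icam1 was -1.65 with the mitochondrial limit, -1.12 as a mean over cells and -1.09 after thinning. Icam2 there was -0.68 with mixed cells assigned, -0.91 as a mean over cells, -0.23 without the deepest cells, -0.97 after thinning and -1.04 without the top cells.

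Luminal over capillary, ND: with mixed cells assigned the ratios were 6.50 (Vcam1), 0.78 (Icam1) and 1.23 (Selplg), with 1 more marker needed 0.80 (Icam1) and 0.51 (Selplg), and with median of ratios 0.75 (Icam1) and 1.19 (Icam2). Vcam1 was 7.83 without the deepest cells and Selplg 0.84 after thinning. In HFD, Vcam1 was 5.58 with mixed cells assigned and 5.56 after thinning, Icam1 0.50 and Icam2 1.16 with median of ratios, Icam2 1.18 after thinning and 1.26 by the Vwf rule, Selp 6.17 and Selplg -1.08 with the mitochondrial limit, and Selplg 2.21 after thinning.

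Genes past 2-fold: with a minimum of 50 UMIs, 558 were lower in endothelial cells, 108 higher and 219 lower in luminal, 529 lower in capillary, and 263 higher and 421 lower in macrophage cells. With a minimum of 200 UMIs, 75 were higher in endothelial, 23 higher and 50 lower in luminal, and 112 higher and 149 lower in macrophage cells. At 1.5-fold the higher and lower counts were 359 and 1264 in endothelial, 193 and 335 in luminal, 375 and 1142 in capillary and 470 and 767 in macrophage cells. With median of ratios 206 were lower in capillary and 168 in macrophage cells. Sele, with 28 and 45 UMIs, and Selplg in endothelium were limited by depth.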
